A study of Mus musculus with 4 samples.

Results

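The type II topoisomerases and the subunits of the condensin complexes were examined in mouse medulloblastoma and normal cerebellum. The members were 10 genes chosen by name, Top2a, Top2b, Smc2, Smc4, Ncapd2, Ncapg, Ncaph, Ncapd3, Ncapg2 and Ncaph2, and all 10 were measured among 19938 named genes. Each was read from the probe set annotated to that gene alone, and Top2a, which had a second such probe set, from the one with the higher mean.

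The study holds 4 Affymetrix Mouse Gene 1.0 ST arrays, each of total RNA from one tissue sample. The control array held RNA of wild-type cerebellum at an age of 2 months. Tumour arrays held medulloblastomas of Math1-Cre;SmoM2 mice, 1 at 1 month and 1 at 2 months of age, in which Cre recombinase under Math1 (Atoh1) control switches on an active Smoothened in the granule neuron lineage, and a medulloblastoma of the PtchLacZ/+ line at 5 months, heterozygous for a lacZ allele of the Hedgehog receptor gene Ptch1. All mice had a mixed background of C57BL/6 and C3H. The tumours arise spontaneously in both lines, genotype and age differ together between them, and the labels do not say how many animals gave each sample. P-values then measure only the spread between these samples, and the lone cerebellum was assumed to vary like the tumours.

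Type II topoisomerases pass a DNA duplex through a transient break in another duplex, and so remove supercoils and disentangle sister DNA. Vertebrates carry an alpha form (Top2a), made in dividing cells and needed to separate chromosomes in mitosis, and a beta form (Top2b), also made in non-dividing cells such as neurons. Condensins are ring complexes that compact mitotic chromosomes. Condensin I and condensin II share the ATPase subunits SMC2 and SMC4 and differ in the kleisin subunit (CAP-H or CAP-H2) and the HEAT-repeat subunits (CAP-D2 and CAP-G, or CAP-D3 and CAP-G2). Condensin II is nuclear through the cell cycle, whereas condensin I reaches chromosomes after the nuclear envelope breaks down. Granule neurons, the most abundant cells of the adult cerebellum, no longer divide, and the tumours studied here grow from their progenitors.

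Of the 10 genes, 7 rose in the tumours over the cerebellum and none fell, against 6.70% of all named genes that rose and 9.30% that fell at the same threshold. Those that rose were Top2a, both SMC subunits, all 3 subunits specific to condensin I and 1 of the 3 specific to condensin II (Ncapg2). Top2b and the condensin II genes Ncapd3 and Ncaph2 did not pass. The threshold was an adjusted p under 0.05 in limma, with Benjamini-Hochberg adjustment over all 19938 genes. The median difference over the 10 genes was 2.97 on the log2 scale, beside 0.04 over all named genes. Every one of the 10 was higher in each of the 3 tumours than in the cerebellum, a pattern shared by 38.1% of all named genes. The 10 genes, selected for their function with earlier results of these data known, showed a wide range of differences, from 0.36 to 5.78.

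**Figure D1:**
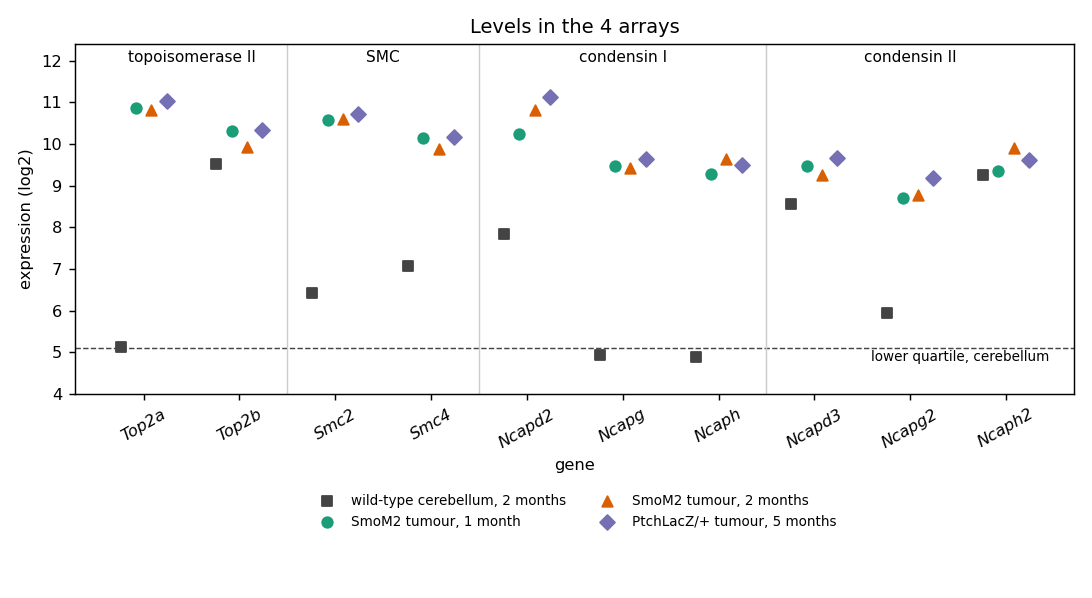
Expression level (vertical axis, log2) of each gene (horizontal axis) in each of the 4 arrays, with 1 symbol per array. The dashed line is the lower quartile of named genes in the cerebellum (5.09). Levels of different genes come from different probe sets and are not compared with each other. The cerebellum symbol lies far below the 3 tumours for Top2a, Smc2, Smc4, Ncapd2, Ncapg, Ncaph and Ncapg2, and close to them for Top2b, Ncapd3 and Ncaph2.

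Top2a rose and Top2b did not pass. Top2a, the form of dividing cells, was at a log2 level of 5.12 in the cerebellum, 10.86 in the 1-month SmoM2 tumour, 10.81 in the 2-month SmoM2 tumour and 11.04 in the PtchLacZ/+ tumour. The 3 tumours lay within 0.23 of each other, and the cerebellum stood far apart from them. Top2a rose by 5.78 ± 0.19 (limma's standard error here and below; adjusted p = 0.00231), which is 54.9-fold, and only 3 of the 19938 genes had a larger measured difference. Its cerebellum level was just above the lower quartile of named genes in that array, 5.09. Whether a level near or under that quartile exceeds background is not known here, and differences taken from it may be lower limits.

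Top2b, the form also found in neurons, was at a log2 level of 9.52 in the cerebellum, 10.31 in the 1-month and 9.93 in the 2-month SmoM2 tumour, and 10.33 in the PtchLacZ/+ tumour. The tumours were all higher, but the nearest of them, the 2-month SmoM2 tumour, was only 0.42 above the cerebellum. The difference was 0.67 ± 0.23, with a 95% interval of 0.08 to 1.27, and did not pass (adjusted p = 0.128). Nor did it pass without the 1-month SmoM2 tumour (0.61) or without the PtchLacZ/+ tumour (0.60). It passed without the 2-month SmoM2 tumour (0.80 ± 0.15, adjusted p = 0.0132), a fit in which 13.5% of all named genes were called higher.

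Relative to the cerebellum, the log2 ratio of Top2a to Top2b was 4.94 higher in the 1-month SmoM2 tumour, 5.27 higher in the 2-month SmoM2 tumour and 5.11 higher in the PtchLacZ/+ tumour. The mean shift of 5.11, a 34.5-fold change of the ratio, was far larger than the spread between tumours (SD 0.16, n = 3). An exact two-sided permutation test over the arrays gave p = 0.25, the smallest p that 3 arrays against 1 allow. All 6 within-array ratios tested gave this exact permutation p of 0.25, also after Benjamini-Hochberg adjustment over the 6. With the mean of both Top2a probe sets in place of the brighter, Top2a rose by 3.12 ± 0.21 (adjusted p = 0.00380) and the ratio shifted by 2.45.

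The start regions of Top2a and Top2b are shown since these related enzymes differed so unequally from the cerebellum. They are the 250 bases before the transcription start, from RefSeq (build GRCm38.p6), 5′ to 3′ on the strand of the gene. The Top2a window is chr11:99024190-99024439 on the minus strand and the Top2b window chr14:16364956-16365205 on the plus strand. Capitals mark matches, on either strand and overlaps allowed, to TTTGAA (the cell cycle genes homology region, CHR), CCAAT (the CCAAT box) or GCGGGAA (an E2F core).
Top2a: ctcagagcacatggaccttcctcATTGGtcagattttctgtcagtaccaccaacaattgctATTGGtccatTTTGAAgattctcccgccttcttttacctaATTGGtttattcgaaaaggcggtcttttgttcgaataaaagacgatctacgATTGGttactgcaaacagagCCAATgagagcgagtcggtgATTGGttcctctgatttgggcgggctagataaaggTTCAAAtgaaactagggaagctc
Top2b: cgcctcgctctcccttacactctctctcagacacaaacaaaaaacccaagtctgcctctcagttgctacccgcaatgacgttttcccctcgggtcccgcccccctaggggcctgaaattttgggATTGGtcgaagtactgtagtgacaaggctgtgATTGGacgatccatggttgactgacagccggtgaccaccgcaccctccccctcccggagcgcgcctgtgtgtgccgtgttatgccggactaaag
The Top2a window held 6 CCAAT boxes and 2 CHR matches. The Top2b window held 2 CCAAT boxes and no CHR match. Of 32851 promoter windows of this length, 16.0% held a CHR match, 33.8% at least 1 CCAAT box and 0.0578% at least 6. The cut of 6 was the count of the Top2a window itself, and a link of these matches to the rise was not tested. The CHR is known as an element of genes expressed late in the cell cycle, and the CCAAT box as the binding site of NF-Y. A match is a description of the letters and shows no binding.

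Both shared SMC subunits rose. Smc2 was at a log2 level of 6.41 in the cerebellum. Its level was 10.58 in the 1-month SmoM2, 10.59 in the 2-month SmoM2 and 10.72 in the PtchLacZ/+ tumour. With an SD of 0.08 over the 3 tumours, its tumour levels were the closest together of the 10 genes. It rose by 4.22 ± 0.17 (adjusted p = 0.00295). Smc4 had a cerebellum level of 7.06 and, in the same order of tumours, levels of 10.14, 9.87 and 10.17. It rose 7.99-fold (standard error 0.20 on the log2 scale, 95% interval 2.48 to 3.52, adjusted p = 0.00376). Although the proteins form a heterodimer, the Smc2 to Smc4 ratio was higher in the tumours by 1.10, 1.37 and 1.21 on the log2 scale, in the same order of tumours, with a mean of 1.23 (SD 0.14, n = 3, exact permutation p = 0.25).

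All 3 subunits specific to condensin I rose. The kleisin gene Ncaph was at a log2 level of 4.88 in the cerebellum, 9.27 in the 1-month SmoM2, 9.65 in the 2-month SmoM2 and 9.50 in the PtchLacZ/+ tumour, and rose by 4.59 ± 0.21 (adjusted p = 0.00295). Ncapg, which encodes the HEAT-repeat subunit CAP-G, had a cerebellum level of 4.93 and tumour levels of 9.46, 9.42 and 9.65 in that order, and rose by 4.58 ± 0.19 (adjusted p = 0.00295). In the cerebellum both lay under the lower quartile of named genes, so these differences, 24.1-fold and 23.9-fold, may be lower limits. Ncapd2, which encodes the other HEAT-repeat subunit, CAP-D2, was at 7.84 in the cerebellum, 10.23 in the 1-month SmoM2, 10.82 in the 2-month SmoM2 and 11.13 in the PtchLacZ/+ tumour. It rose by 2.88 ± 0.37 (adjusted p = 0.0108). Its tumour SD of 0.46 was the widest of the 10 genes, with the 1-month SmoM2 tumour lowest.

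The subunits specific to condensin II differed from the cerebellum by unequal amounts. Ncapg2, which encodes CAP-G2, was at a log2 level of 5.95 in the cerebellum, 8.70 in the 1-month SmoM2, 8.77 in the 2-month SmoM2 and 9.18 in the PtchLacZ/+ tumour. It rose by 2.94 ± 0.25 (adjusted p = 0.00509), a difference close to that of Ncapd2 in condensin I. Ncapd3, which encodes CAP-D3, was at 8.57 in the cerebellum, 9.46 in the 1-month SmoM2, 9.26 in the 2-month SmoM2 and 9.67 in the PtchLacZ/+ tumour. Its difference of 0.90 ± 0.22 (95% interval 0.33 to 1.46) did not pass (adjusted p = 0.0574), although it did without the 2-month SmoM2 tumour (1.00 ± 0.17, adjusted p = 0.00912).

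The kleisin gene Ncaph2 was at 9.26 in the cerebellum, 9.35 in the 1-month SmoM2, 9.90 in the 2-month SmoM2 and 9.61 in the PtchLacZ/+ tumour. The 1-month SmoM2 tumour was only 0.09 above the cerebellum. Its difference was 0.36 ± 0.26 (adjusted p = 0.454), and the 95% interval of -0.31 to 1.03 leaves out a rise of the size seen for Ncaph. Without the 2-month SmoM2 tumour the difference was 0.22.

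**Figure D2:**
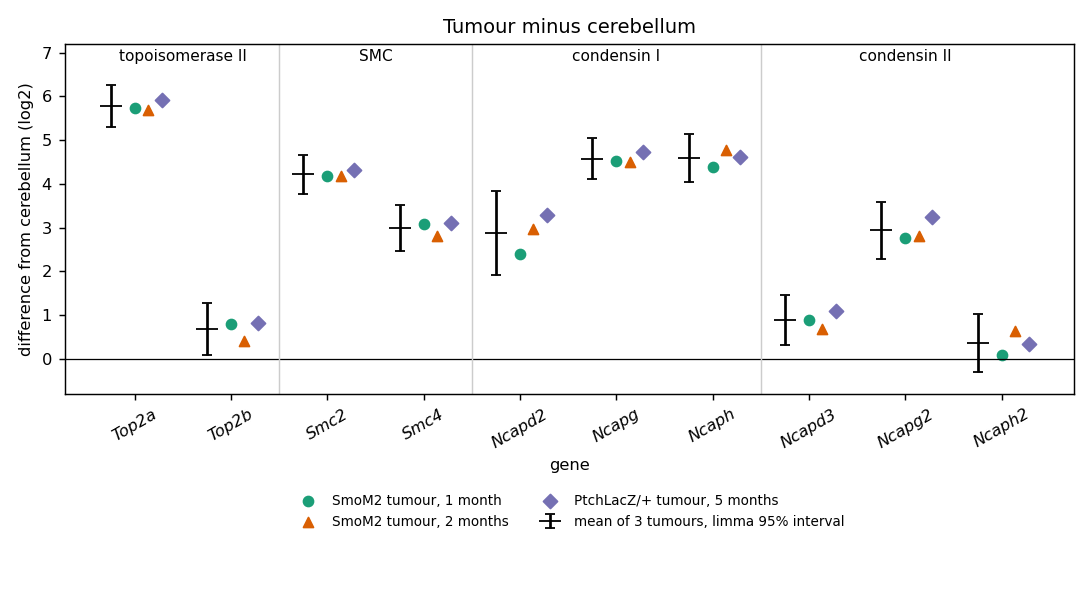
Difference from the cerebellum (vertical axis, log2) of each gene in each tumour (coloured symbols), with the mean of the 3 tumours and its 95% interval from limma (black). Intervals of Top2b and Ncapd3 end just above 0 at their lower side (0.08 and 0.33) without passing after adjustment, that of Ncaph2 crosses 0, and those of the other 7 genes start at 1.93 or higher.

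Condensin I subunits thus differed from the cerebellum by 4.02 on average and condensin II subunits by 1.40. The mean log2 difference of the condensin I subunits exceeded that of the condensin II subunits by 2.52 in the 1-month SmoM2 tumour, 2.70 in the 2-month SmoM2 tumour and 2.65 in the PtchLacZ/+ tumour. The mean excess of 2.62 was larger than the spread between tumours (SD 0.09, n = 3), while the spread of normal cerebellum was not measured. The exact permutation p was 0.25, the smallest that 3 arrays against 1 allow, so the test could not decide. Each matched pair of subunits went the same way in all 3 tumours. The kleisin pair, Ncaph over Ncaph2, shifted by 4.23 (SD 0.09), Ncapd2 over Ncapd3 by 1.99 (SD 0.43) and Ncapg over Ncapg2 by 1.64 (SD 0.15; n = 3, exact permutation p = 0.25 for each). Without the kleisin pair the excess was 1.81. Ncaph and Ncapg lay under the lower quartile in the cerebellum, so their pair shifts and the condensin I mean may be lower limits.

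**Figure D3:**
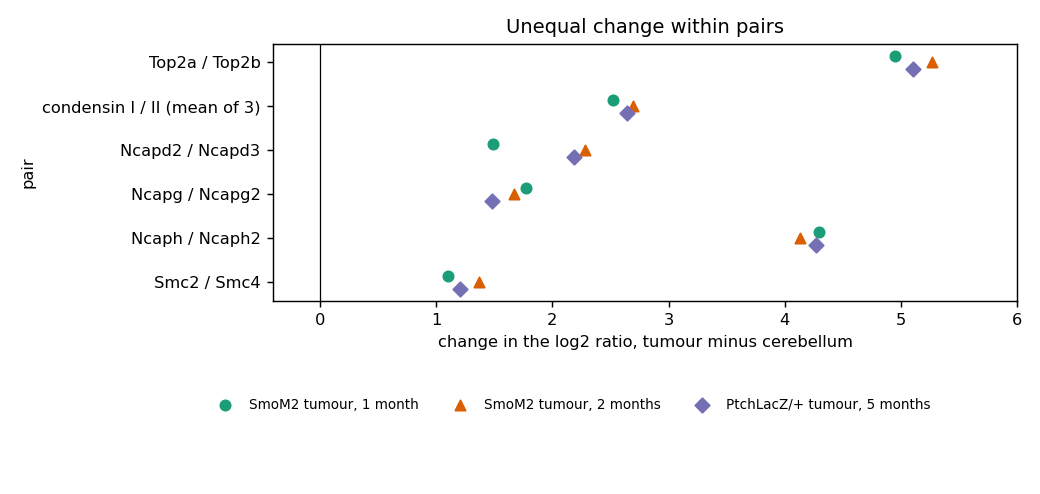
Change in the log2 ratio of the genes of a pair (horizontal axis, tumour minus cerebellum) for 6 pairs (vertical axis), with 1 symbol per tumour. A value of 0 would mean that both genes changed equally. All 18 points are above 0, from 1.10 to 5.27, and the tumours lie close together within each pair, least so for Ncapd2 over Ncapd3 (1.49 to 2.28).

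The start regions of Ncapg and of the condensin II genes Ncapg2 and Ncaph2 are shown, since Ncapg and Ncapg2 rose and Ncaph2 did not pass. The windows, marked as above, are chr5:45669675-45669924, chr12:116405186-116405435 and chr15:89355469-89355718, all on the plus strand.
Ncapg: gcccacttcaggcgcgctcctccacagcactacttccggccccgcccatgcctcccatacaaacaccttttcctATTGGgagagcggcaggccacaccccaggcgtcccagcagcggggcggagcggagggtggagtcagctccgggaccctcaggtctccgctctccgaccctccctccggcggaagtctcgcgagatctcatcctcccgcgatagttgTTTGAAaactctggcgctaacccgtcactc
Ncapg2: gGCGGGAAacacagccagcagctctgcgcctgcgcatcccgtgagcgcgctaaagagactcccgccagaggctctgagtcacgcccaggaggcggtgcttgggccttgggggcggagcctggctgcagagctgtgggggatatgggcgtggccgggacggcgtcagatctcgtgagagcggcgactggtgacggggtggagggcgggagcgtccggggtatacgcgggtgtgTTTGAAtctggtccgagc
Ncaph2: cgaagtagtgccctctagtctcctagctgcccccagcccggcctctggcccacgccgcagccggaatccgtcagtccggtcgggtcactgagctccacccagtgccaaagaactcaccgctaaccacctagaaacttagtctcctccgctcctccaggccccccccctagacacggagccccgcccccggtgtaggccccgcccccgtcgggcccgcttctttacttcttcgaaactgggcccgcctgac
Ncapg held 1 CHR match and 1 CCAAT box. Ncapg2 held 1 CHR match and 1 E2F core, which was present in 3.82% of all windows, and no CCAAT box. Ncaph2 held no match to the exact strings searched. Variants of these strings were not counted in any window, so a window without a match may still hold a variant of the CHR. Whether such matches separate genes that rose from those that did not pass was not tested. Among the other condensin genes, Smc2 held 1 CHR match and 1 CCAAT box, and Ncapd2 held 1 CHR match and 3 CCAAT boxes. Ncaph, whose level rose, held no match, and of the 2 start regions listed for Ncapd3, 1 held a CHR match. Of the 10 genes, 9 had a promoter entry, and Smc4 was the exception.

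In the distribution of differences over all named genes, Top2a, Ncaph, Ncapg and Smc2 were at ranks 4, 35, 37 and 51 of 19938, counted from the largest rise. Smc4, Ncapg2 and Ncapd2 followed at ranks 181, 188 and 204. Ncapd3, Top2b and Ncaph2 were at ranks 1765, 2495 and 4569. These are ranks of the measured differences, and those of Ncaph and Ncapg, and of Top2a with its cerebellum level near the lower quartile, rest on differences that may be lower limits.

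**Figure D4:**
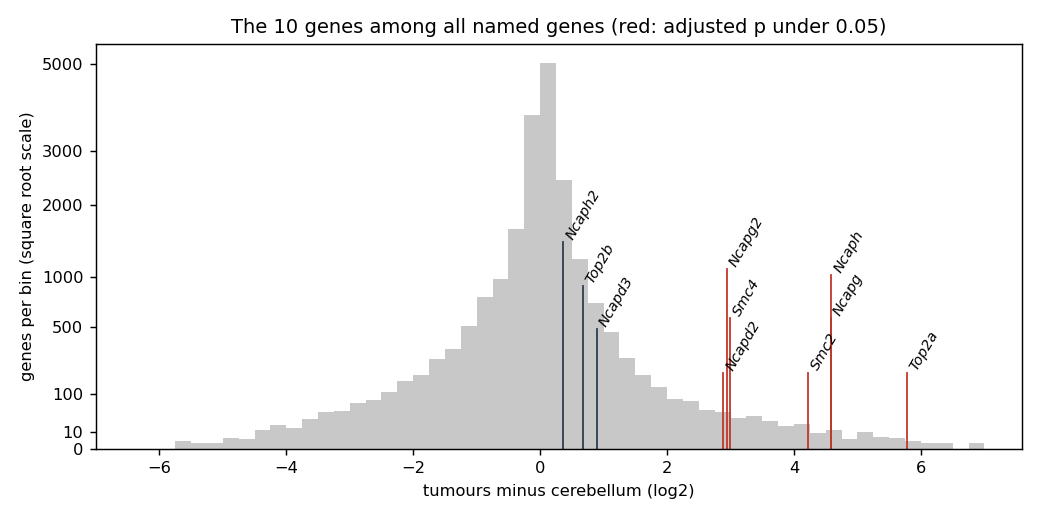
Number of named genes (vertical axis, square root scale) by tumour minus cerebellum difference (horizontal axis, log2, bins of 0.25). Lines mark the 10 genes, in red where the adjusted p was under 0.05, and their heights only separate the labels. Of the 10 genes, 7 lie in the right tail at 2.88 or more, and Ncaph2, Top2b and Ncapd3 lie between 0.36 and 0.90.

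No difference between the tumour types was detected for these genes. In the PtchLacZ/+ tumour against the SmoM2 tumours, 0 of the 10 genes passed in limma, at an adjusted or at an unadjusted p under 0.05, and 0 of 19938 genes passed after adjustment. At an unadjusted p under 0.05 there were 280 (1.40%). Genes whose PtchLacZ/+ level lay above both SmoM2 tumours numbered 8 of the 10, all but Ncaph and Ncaph2, beside 23.8% of all named genes. The median difference of the 10 genes was 0.21, against -0.03 over all genes. The difference was 0.60 ± 0.34 for Ncapd2 (adjusted p = 1.00) and 0.45 ± 0.25 for Ncapg2. That of Ncapd2 rested on the SmoM2 tumours unequally, with 0.31 without the 1-month and 0.90 without the 2-month tumour, while Ncapg2 was at 0.42 and 0.48. For Top2a it was 0.21 ± 0.25 (95% interval -0.46 to 0.87). For cell type markers, the median PtchLacZ/+ minus SmoM2 difference was -1.97 (Purkinje cell), -1.14 (mature granule neuron) and -1.12 (astrocyte and Bergmann glia). It was -0.93 for oligodendrocyte, -0.83 for inhibitory interneuron and -0.48 for endothelial markers. For granule neuron progenitor and for microglia and macrophage markers it was 0.36 and 0.37. The part of these shifts in the differences of the 10 genes was not tested.

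The SmoM2 tumours, with 1 array at each age, allowed no test between ages. None of the 10 genes differed by 1 or more on the log2 scale between 1 and 2 months, while 3.71% of all named genes did. The condensin I gene Ncapd2 was 0.59 lower and the condensin II gene Ncaph2 0.55 lower at 1 month, which made 2 genes past 0.5, a size reached by 21.5% of all named genes. Which genes passed 0.5 moved with the normalization. After quantile normalization Ncapd2 was at -0.42 and Ncaph2 at -0.43, and Top2b was at 0.52, while median centring left Ncapd2 at -0.52 and Ncaph2 at -0.48. Top2b was 0.38 higher and Ncaph 0.38 lower at 1 month. In the deposited values Top2a, Ncapg, Ncapg2 and Smc2 differed by 0.06 or less in either direction. After quantile normalization Top2a was 0.21, Ncapg 0.15 and Smc2 0.13 higher at 1 month. Summed on the linear scale, 4 endothelial markers were at 466 at 1 month and 1050 at 2 months, and their part in these differences was not tested.

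Other genes that shape chromosomes were compared with the cerebellum through lists of related function. Their counts stand beside 6.70% of all named genes higher and 9.30% lower. Leaving out the 2-month SmoM2 tumour made the share higher 13.5%, leaving out the 1-month one 4.98%, and leaving out the PtchLacZ/+ tumour 3.15%. Of 18 genes of the cohesin ring and its regulators, 7 rose and none fell, with a median difference of 0.77. Cohesin holds sister DNA together until anaphase. Sgo1, which protects centromeric cohesin, rose by 4.07 ± 0.34 (adjusted p = 0.00488), and Cdca5, the cohesion factor sororin, rose by 4.02 ± 0.29 (adjusted p = 0.00407). Their cerebellum levels, 4.61 and 4.84, lay under the lower quartile, so both differences may be lower limits. The acetyltransferase gene Esco1 differed by -1.07 ± 0.38 (adjusted p = 0.136) and the deacetylase gene Hdac8 by -0.77 ± 0.26 (adjusted p = 0.128). Without the 2-month SmoM2 tumour 13 cohesin genes were higher and 1 lower, and without the 1-month SmoM2 tumour 6 were higher and 1 lower.

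The 8 genes of the SMC5/6 complex, which acts in DNA repair, had a median difference of 0.51, and 1 of them, the SUMO ligase gene Nsmce2, rose (1.51 ± 0.18, adjusted p = 0.00952). Nsmce1 differed by 1.21 ± 0.38 (adjusted p = 0.101), Slf2 by -0.13 ± 0.46 (adjusted p = 0.902) and Nsmce3 by -0.06 ± 0.30 (adjusted p = 0.929). Without the 2-month SmoM2 tumour, when 13.5% of all named genes were higher, 5 of the 8 were higher, and without the 1-month SmoM2 tumour 2 were. Of 8 other topoisomerase and TOP2 adduct repair genes, 1 rose, where 6.70% of all named genes did, with a median difference of 0.33. That gene was Tdp1, whose product removes trapped topoisomerase, chiefly topoisomerase I, from DNA (95% interval 0.83 to 2.16 on the log2 scale, adjusted p = 0.0228). Tdp2 differed by 0.62 ± 0.17 and did not pass (adjusted p = 0.0793). Top3a differed by 0.87 ± 0.22 (adjusted p = 0.0592) and the mitochondrial Top1mt by -0.92 ± 0.28 (adjusted p = 0.100). The count of higher genes in that list was 2 after quantile normalization, 3 without the 2-month SmoM2 tumour, when 1 was lower, and 0 without the PtchLacZ/+ tumour.

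Of 15 measured genes among the kinases and partners of chromosome condensation, 10 rose and none fell, with a median difference of 3.49. Ccna2 (cyclin A2) rose by 6.34 ± 0.19 (adjusted p = 0.00231) from a cerebellum level of 4.61, under the lower quartile, and Mki67, whose product coats mitotic chromosomes, rose by 5.41 ± 0.41 (adjusted p = 0.00427). Ppp2r1a, a scaffold subunit of protein phosphatase 2A, differed by -0.31 ± 0.31 (adjusted p = 0.606).

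**Figure D5:**
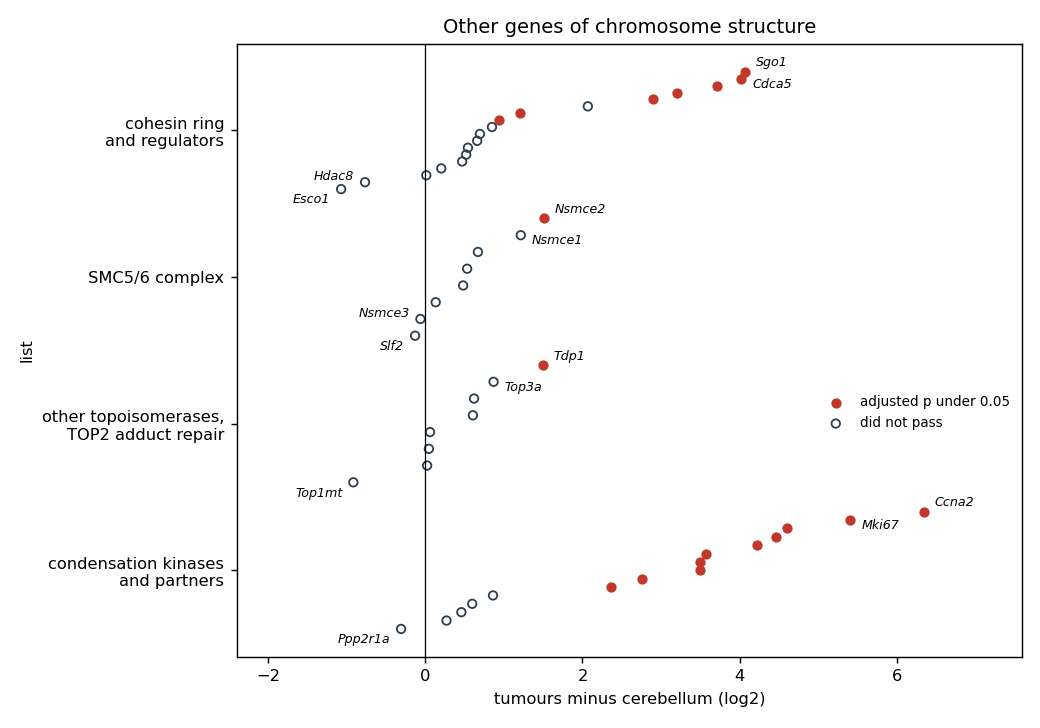
Difference between tumours and cerebellum (horizontal axis, log2, mean of 3 tumours minus 1 cerebellum) of each measured gene of 4 lists (vertical axis), with filled symbols for an adjusted p under 0.05. Within a list, genes are stacked by size of the difference. In the cohesin list 5 genes are above 2.5 while most others lie below 1, and 10 of the 15 condensation kinase and partner genes are above 2.

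The tissue labels were checked against marker genes. Over all named genes, 6.70% were higher and 9.30% lower at the same threshold. Of 5 granule neuron progenitor markers 4 rose, and Atoh1 went from a level of 4.85 in the cerebellum to 11.39 to 11.98 in the tumours. The progenitor marker that did not pass, Zic1, differed by -0.17 (adjusted p = 0.812). Of 7 mature granule neuron markers 5 fell, while Gabra6 and Cbln3 differed by -5.57 and -4.99 without passing (adjusted p = 0.0509 and 0.0530). The summed linear level of the 7 was 34213 in the cerebellum and 1351 to 2277 in the tumours. Markers of Purkinje cells (3 of 5) and inhibitory interneurons (3 of 3) fell. So did those of astrocytes and Bergmann glia (4 of 6) and of oligodendrocytes (4 of 5). Not every astrocyte and Bergmann glia marker was lower. Gfap was higher in all 3 tumours, by 1.17 ± 0.46 on average, without passing (adjusted p = 0.173). Gdf10 differed by -2.01 and did not pass (adjusted p = 0.0982). Among 6 genes marking microglia and macrophages, Lyz2, Cd68 and Aif1 rose, by 5.21, 3.17 and 1.19 on the log2 scale. The others, Csf1r (0.84), Cx3cr1 (0.97) and Tmem119 (-0.09), did not pass. The summed linear level of these 6 genes was 720 in the cerebellum and 3902 to 6169 in the tumours. Lyz2 had the highest level of the 6 in each tumour. In such bulk samples fewer cells of a type and less RNA per cell cannot be told apart. The part of these shifts in the differences of Top2a, Top2b and the condensins was not tested.

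Genes whose differences over the 3 tumours lay nearest to those of the members were named by root mean square distance on the log2 scale, as a description with 3 values per gene. Nearest to Top2a were Ect2 (0.14), Sfrp1 (0.18), Pclaf (0.18), Nhlh1 (0.27) and Lcn2 (0.49), and only 3 genes lay within 0.25 of it. Nearest to Top2b were Celsr1 (0.02), Baz1b (0.02), Hnrnpu (0.03), Kdm2b (0.04) and Supt20 (0.04), with 661 genes within 0.25. Nearest to the mean of condensin I were Hmgb2 (0.01), Kif15 (0.08), Cip2a (0.10), Spc25 (0.16) and H1f5 (0.17), of 18 genes within 0.25. For the mean of condensin II these were Senp1 (0.01), Hpgds (0.05), Dek (0.06), Rbmx (0.07) and Sdad1 (0.07), of 226.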

How the data were processed

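The authors deposited 1 table of log2 expression values, 35557 probe sets by 4 arrays, for which the submitters' processing notes name Affymetrix Expression Console. The sources used here do not give the version, summarisation or normalization. The log2 scale was read from the values (2.71 to 14.9). Array medians were 6.12 to 6.36. Values were used as deposited, so any shift left between arrays enters every difference. The number of arrays limits the precision.

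The platform annotation gave 21789 probe sets a single gene symbol, 1621 several and 12147 none. For each of 19938 genes, with symbols updated through RefSeq (21698 probe sets matched), the probe set with the highest mean was used.

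Groups came from the genotype labels. Tests used lmFit and eBayes of limma 3.58.1 (R 4.3.3), with 2 residual degrees of freedom for tumours against cerebellum and 1 for PtchLacZ/+ against SmoM2, checked on simulated data. The simulation gave all arrays the same spread within a gene, so it could not test whether the lone arrays vary like the others. Within-array ratios were tested by exact permutation of the arrays. Alternatives were quantile normalization, median centring, a filter at the median level, the mean of probe sets, other prior variances and leaving out each tumour. Named genes were all members, the 2 largest positive and 2 largest negative differences of each list, the 5 nearest patterns and the nearest measured chromosomal neighbours. Tdp2 and some cell type markers were named in addition. Members and lists were chosen with earlier results of these data known. Some listed genes were not analysed here. No probe set with several symbols was used.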

Additional observations from a re-analysis of the deposited data

Results flagged for a closer look

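A second probe set annotated to Top2a alone, not used in the comparisons, was higher in all 3 tumours than in the cerebellum, by 0.46 on average on the log2 scale. It was at 3.41 in the cerebellum and at 3.87 in the 1-month SmoM2, 3.61 in the 2-month SmoM2 and 4.12 in the PtchLacZ/+ tumour, all under the lower quartile of named genes and not shown to be above background. It is annotated to a different transcript record from the probe set used. A pair of further probe sets, annotated to both Top2a and Hibadh, was higher in 2 of 3 tumours each, with mean differences of 0.49 and 0.52.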

How the results depend on the processing

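For 48 results 357 values were recomputed. Of these, 8 changed sign, 2 passed the threshold that the reported value had missed, and 10 counts moved by over 1.5 times or to or from 0. The other 337 include counts that moved by less, values with no test, and ratios whose permutation p could not reach the threshold. The count of members higher than in the cerebellum stayed at 7 under every other setting and was 9 without the 2-month SmoM2 tumour, when Top2b and Ncapd3 passed. The shift of the Top2a to Top2b ratio ranged from 5.03 to 5.19 with 1 tumour left out, and that of condensin I over condensin II from 2.58 to 2.67. The latter was 3.82 with medians of subunits, 2.94 without the CAP-D pair and 3.11 without the CAP-G pair. Values near 0 changed sign in the comparisons of tumours. Ncaph2 in PtchLacZ/+ against SmoM2 became 0.0116 after quantile normalization and 0.0424 after median centring, and with 1 SmoM2 tumour left out it ranged from -0.29 to 0.26 and Ncaph from -0.15 to 0.23. Between 1 and 2 months, Smc2 became 0.13 and 0.0643 and Ncapg2 0.0205 and 0.0049 under those normalizations. At a log2 difference of at least 0.5 in place of 1, 2 members were counted between ages. With 1 tumour left out, higher cohesin genes numbered 5 to 13 and lower ones 0 to 1, higher SMC5/6 genes 1 to 5, and higher genes of the other topoisomerases 0 to 3 and lower ones 0 to 1, and the latter list had 2 higher after quantile normalization. All named genes called in tumours against cerebellum numbered 3191. Leaving out the 2-month SmoM2 tumour gave 6010, the 1-month SmoM2 tumour 2284, and the PtchLacZ/+ tumour 1565. The cause of these changes was not tested. No paired analysis was made, since the labels link no sample of one group to a sample of another. With 1 cerebellum, the spread of normal tissue was not measured.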

Other observations

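The genes measured next to the 10 members on their chromosomes, 1 on each side, did not follow them as a group. Of these 20 neighbours 1 rose and 4 fell in the tumours, beside 6.70% and 9.30% of all named genes, and their median difference was 0.06. The neighbour that rose was Itpripl1, beside Ncaph (1.20 ± 0.22, adjusted p = 0.0271). Those that fell were Ngly1 beside Top2b (-0.86 ± 0.17), Iffo1 beside Ncapd2 (-0.72 ± 0.16), Ptprn2 beside Ncapg2 (-0.98 ± 0.22) and Odf3b beside Ncaph2 (-1.12 ± 0.17). Lcorl, which overlaps Ncapg in the RefSeq gene table, differed by 0.16 ± 0.29 (adjusted p = 0.798), and Mir15b, which lies within Smc4, differed by 0.91 ± 0.92 (adjusted p = 0.608), with levels of 4.74 in the cerebellum, 5.72 in the 1-month SmoM2, 4.39 in the 2-month SmoM2 and 6.86 in the PtchLacZ/+ tumour.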
